A study of Mus musculus with 2 samples.

Results

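Intronic sites of open chromatin inside very long genes of the mouse cerebral cortex were the regions described here. They were DNase-seq peaks with the midpoint inside a protein-coding gene that spans 500 kb or more in the GENCODE M21 annotation (mm10 build), outside all annotated exons and over 2 kb from every annotated transcription start. In library 1, 7266 of 132054 peaks met this rule (5.50%, exact 95% binomial interval 5.38 to 5.63%), and in library 2, 7562 of 139799 did (5.41%, interval 5.29 to 5.53%). The genes were 230 of 21938 protein-coding genes, from Edil3 at 502 kb, just inside the limit, to the model Gm20388 at 4435 kb, with Pde1c at 499 kb just outside it. Their spans covered 196.9 Mb, of which 184.3 Mb was eligible sequence, meaning outside exons and over 2 kb from any start. The members nearest to a start lay 2002 bases from it in each library, and the nearest peaks left out on this ground lay 1992 and 1999 bases away.

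DNase-seq sequences the cuts that the enzyme DNase I makes in DNA that nucleosomes do not cover. It was done here on the left cerebral cortex of female B6CASTF1/J mice aged 18 to 20 months, the first-generation hybrid of C57BL/6J and a CAST strain. There was 1 group with 2 libraries, called library 1 and library 2 after the replicate numbers in the labels. Their tissue samples have separate identifiers and 1 donor identifier in common, and separate animals are not stated, so the spread between them may be partly technical. No second condition exists, and a permutation over 2 libraries cannot give a two-sided p under 0.5, so no p is given. The tissue is bulk: a site open in few cells and one weakly open in many cannot be told apart. Promoter peaks were found in both libraries at 6 of 6 excitatory neuron, 4 of 5 inhibitory neuron, 4 of 5 astrocyte, 2 of 5 oligodendrocyte, 1 of 5 microglial, 1 of 5 endothelial, 1 of 5 muscle and 0 of 5 liver marker genes, with the astrocyte gene Aqp4 lacking one.

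Very long genes are unusually common among genes of the nervous system, where they encode synaptic adhesion proteins, ion channels, receptors and scaffolds. Most of their length is intron. Introns can hold enhancers, which are stretches bound by transcription factors that raise the activity of a promoter, sometimes a distant one, and binding sites of CTCF, the protein that anchors chromatin loops. A bound protein can shield a few bases from the enzyme and leave a footprint inside an open region.

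The sequences below are the strongest member found in both libraries in each of 5 of the 6 genes with most members per Mb, and 4 of the 5 strongest members of all, with Camta1 in both sets. Those of 1 dense gene and 1 strong member are not shown here. Bases in capitals lie in a deposited footprint of both libraries and all others are in lower case. Each is the forward strand of mm10, 5′ to 3′, over the library 1 peak, and none has a further copy at 90% identity over 50% of its length in the genome.
Gm20388, chr8:121585461-121585720: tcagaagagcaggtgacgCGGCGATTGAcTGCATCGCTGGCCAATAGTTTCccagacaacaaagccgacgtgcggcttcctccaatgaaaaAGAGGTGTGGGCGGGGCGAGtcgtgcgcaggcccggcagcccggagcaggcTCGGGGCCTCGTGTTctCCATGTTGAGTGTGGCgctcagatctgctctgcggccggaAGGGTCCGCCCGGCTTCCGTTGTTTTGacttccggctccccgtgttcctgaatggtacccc
Fgfr2, chr7:132551841-132552040: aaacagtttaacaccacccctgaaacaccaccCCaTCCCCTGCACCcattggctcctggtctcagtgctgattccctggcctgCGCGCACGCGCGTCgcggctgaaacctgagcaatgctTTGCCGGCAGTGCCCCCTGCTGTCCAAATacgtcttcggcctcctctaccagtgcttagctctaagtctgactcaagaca
Camta1, chr4:151141621-151141840: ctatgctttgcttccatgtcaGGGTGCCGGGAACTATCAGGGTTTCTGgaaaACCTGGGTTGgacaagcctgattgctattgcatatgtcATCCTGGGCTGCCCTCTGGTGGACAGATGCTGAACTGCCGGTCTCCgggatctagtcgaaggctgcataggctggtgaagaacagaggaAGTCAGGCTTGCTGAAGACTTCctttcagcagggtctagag
Rasgef1b, chr5:99248561-99248760: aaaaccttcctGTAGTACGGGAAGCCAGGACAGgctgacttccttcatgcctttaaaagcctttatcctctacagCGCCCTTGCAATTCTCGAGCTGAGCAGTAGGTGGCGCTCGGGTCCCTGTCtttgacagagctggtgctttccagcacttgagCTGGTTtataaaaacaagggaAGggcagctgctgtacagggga
Kalrn, chr16:34241981-34242240: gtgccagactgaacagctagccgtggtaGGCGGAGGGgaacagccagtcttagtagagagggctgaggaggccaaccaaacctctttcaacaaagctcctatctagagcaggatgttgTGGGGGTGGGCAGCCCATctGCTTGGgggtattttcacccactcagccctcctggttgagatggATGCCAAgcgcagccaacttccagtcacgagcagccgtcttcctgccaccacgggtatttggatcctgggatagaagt
Ptprn2, chr12:117196801-117197020: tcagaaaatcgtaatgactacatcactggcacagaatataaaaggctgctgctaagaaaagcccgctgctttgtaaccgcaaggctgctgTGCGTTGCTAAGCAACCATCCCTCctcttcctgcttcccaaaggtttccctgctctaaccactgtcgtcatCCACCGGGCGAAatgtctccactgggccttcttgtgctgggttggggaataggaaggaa
Ank3, chr10:69710881-69711140: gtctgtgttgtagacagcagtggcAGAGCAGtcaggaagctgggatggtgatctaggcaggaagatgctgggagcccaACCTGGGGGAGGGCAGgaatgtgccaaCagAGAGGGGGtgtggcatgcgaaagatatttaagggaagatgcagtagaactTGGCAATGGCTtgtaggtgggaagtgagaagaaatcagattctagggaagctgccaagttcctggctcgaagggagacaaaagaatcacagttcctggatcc
Elmo1, chr13:20311721-20311920: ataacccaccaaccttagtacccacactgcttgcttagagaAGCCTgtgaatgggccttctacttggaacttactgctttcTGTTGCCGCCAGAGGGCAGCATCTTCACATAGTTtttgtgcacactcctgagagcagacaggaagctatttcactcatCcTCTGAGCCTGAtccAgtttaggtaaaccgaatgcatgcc

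These members differ in which searched patterns matched inside their footprints. In Camta1 and Elmo1 the capitals hold a match to the CTCF consensus, and in Ptprn2 they hold a match to GTTGCNANG, the pattern used for RFX factors. In Kalrn and Ank3 the middle of a match to TTGGCA, the half-site of NFI factors, lies in a shared footprint, and in Camta1 that of CAGATG does so too, an E-box of the kind bound by neuronal helix-loop-helix factors. No pattern searched had its middle in the shared footprints of the Gm20388, Fgfr2 and Rasgef1b members. In Fgfr2 and Rasgef1b, however, the capitals hold a stretch that misses the CTCF consensus only at its first base. A match is a description of letters and not a measured binding event.

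Intronic peaks were sparser in very long genes than in shorter ones. Per Mb of eligible sequence there were 39.4 members in library 1 and 41.0 in library 2. Introns of genes of 200 to 500 kb held 50.5 and 52.6 peaks per Mb, those of 100 to 200 kb 52.0 and 54.4, those of 50 to 100 kb 50.2 and 53.7, and those under 50 kb 46.1 and 50.2. Sequence outside protein-coding genes held 30.7 and 31.6, so the very long genes lay between it and every shorter class in both libraries. The difference from genes of 200 to 500 kb was -11.3 ± 0.286 peaks per Mb (SD, n = 2), and it was -6.73 with the shorter peak lists.

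**Figure D1:**
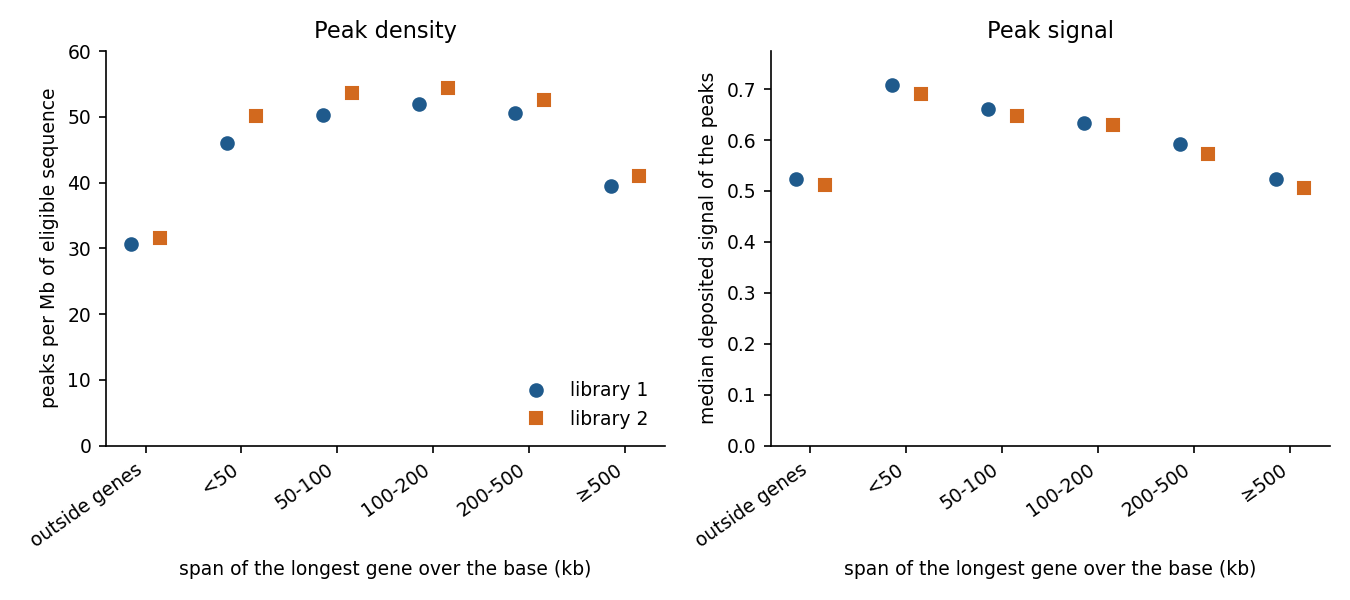
Peaks per Mb of eligible sequence (left) and median deposited signal of those peaks (right) by the span in kb of the longest protein-coding gene over the base, with 1 point per library. Genes of 500 kb or more sit at 39.4 and 41.0 peaks per Mb, below the 4 shorter gene classes and above sequence outside genes, and the median signal falls from 0.708 and 0.691 in genes under 50 kb to 0.524 and 0.506.

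The peaks were also weaker. The deposited signal is a per-peak value without a stated normalization, and its median was 0.524 for the members of library 1 and 0.506 for those of library 2. It was 0.592 and 0.573 in genes of 200 to 500 kb and rose step by step to 0.708 and 0.691 in genes under 50 kb. Of the members, 62.4% and 64.5% had a signal under the median of their own library. Bases with a false discovery rate under 0.05 in the per-base tables numbered 9.50 and 10.4 per kb of eligible sequence in very long genes, against 12.4 and 13.6 in genes of 200 to 500 kb. Genes of 500 to 600 kb held 43.4 and 44.5 members per Mb, those of 800 to 1000 kb 34.5 and 38.2, and those of 1500 kb or more 43.1 and 44.5. The last value rested on gene models that run across other genes, described further on as 6 models. Without them the longest class held 34.2 and 33.8 per Mb, those of 800 to 1000 kb 34.99 and 38.7, and those of 1000 to 1500 kb 34.04 and 34.3, so the density was lower from 800 kb upward. Across the 230 genes, Spearman's rho between span and members per Mb was -0.10 and -0.09, as a description.

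Members were spread along the whole gene. Position was read in the 224 genes other than those 6 models. With each gene divided into 10 equal parts, the one at the gene's start held 38.1 and 43.4 per Mb, the one at its end 43.5 and 46.0, and parts 2 to 7 between 34.3 and 38.1. The part at the end was the densest in both libraries. First introns held 40.04 and 41.1 per Mb and 22.4% and 22.3% of the members counted in these 224 genes, second introns 35.9 and 35.6 per Mb, and later introns 37.8 and 39.4. Distance to the nearest annotated start of any gene, over all 230 genes, showed a steadier decline. From 2 to 10 kb there were 44.2 and 50.1 members per Mb, from 50 to 100 kb 38.0 and 39.4, from 100 to 200 kb 32.3 and 32.6, and beyond 200 kb 27.2 and 24.4. Without the 6 models the nearest class held 40.98 and 45.8. The median signal over all members went from 0.606 and 0.555 in the nearest of these classes to 0.422 and 0.438 in the farthest.

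The lower density was present at each distance. In genes of 200 to 500 kb the same classes held 53.3 and 55.6 peaks per Mb at 2 to 10 kb, 51.5 and 53.7 at 10 to 50 kb, where the very long genes had 42.8 and 44.1, 47.0 and 48.3 at 50 to 100 kb, and 43.9 and 45.1 at 100 to 200 kb. Beyond 200 kb the shorter genes had 36.8 and 42.1 per Mb, but from 42 and 48 peaks only. In all 5 distance classes and both libraries the very long genes had fewer.

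**Figure D2:**
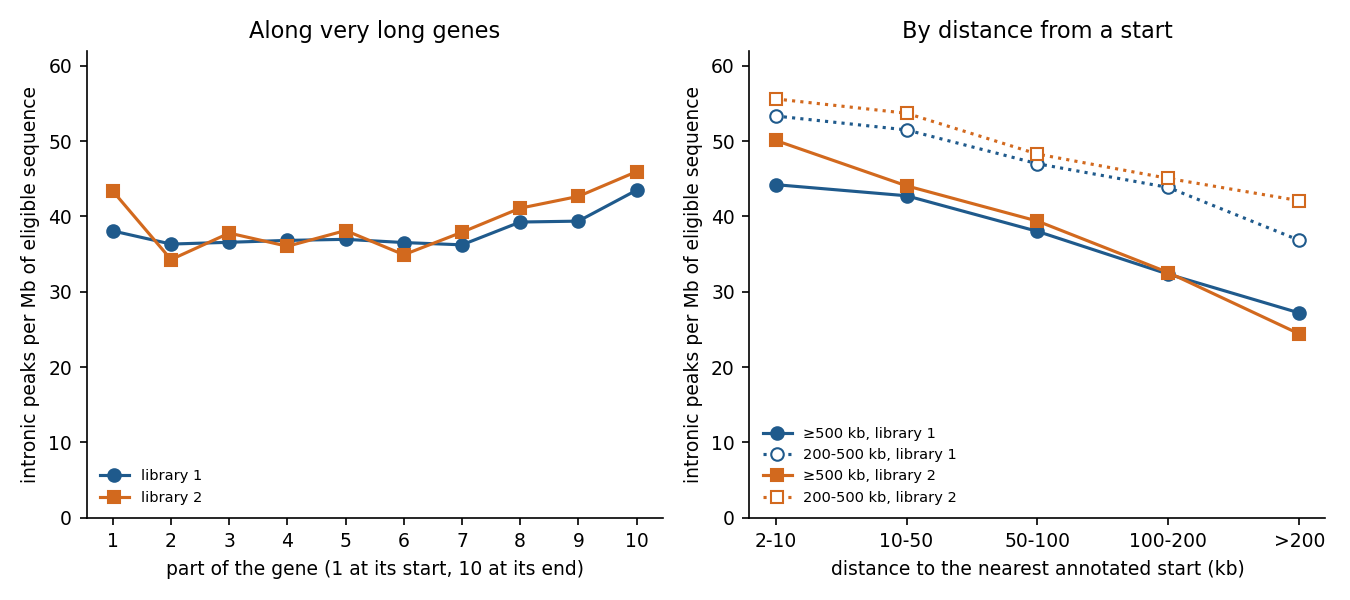
Intronic peaks per Mb of eligible sequence along 224 very long genes in 10 equal parts from start to end (left), and by distance in kb to the nearest annotated start (right), where filled points with solid lines are all 230 very long genes and open points with dotted lines are genes of 200 to 500 kb. The part at the gene's end is highest at 43.5 and 46.0, and at every distance the solid lines lie under the dotted lines.

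Density differed widely from gene to gene. Counting members per Mb of gene span and averaging both libraries, the median of the 230 genes was 34.8, the quartiles were 19.1 and 52.0, and the extremes were 2.88 and 107.5, a 37.4-fold range. The order was alike in both libraries (Spearman's rho 0.963 across genes, a description), and 17 genes stood among the 23 highest of each. All genes had at least 1 member in library 2, and 229 of 230 did in library 1.

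Kalrn, which encodes kalirin, a guanine nucleotide exchange factor of dendritic spines, ranked highest by the mean. Its 604 kb (chr16:33969073-34573532, minus strand) held 64 members in library 1 and 66 in library 2, or 107.5 ± 2.34 per Mb (SD, n = 2). Their median signal was 0.943 and 0.937, also above that of all members, and 59 and 57 of them held a footprint. Camta1, a calmodulin-binding transcription activator, held 75 and 101 members (93.2 ± 19.5 per Mb). Nav2, a neuron navigator protein of neurite growth, held 51 and 78 (92.0 ± 27.2 per Mb). For both genes the libraries lay far apart, with library 2 the higher. Ptprn2, a receptor phosphatase family protein of secretory vesicles, held 72 and 66 members (87.2 ± 5.36 per Mb). Ank3, whose product ankyrin-G organises the axon initial segment, held 50 and 58 (85.9 ± 8.998 per Mb). Elmo1, a regulator of Rac signalling, held 42 and 44 (83.1 ± 2.73 per Mb). In library 2 alone Nav2 stood first at 111 per Mb, with Kalrn at 109 and Camta1 at 107, so the order among the first 6 genes does not hold beyond the difference between the libraries.

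The next 6 genes lay between 78.7 and 81.3 per Mb and do not differ from one another beyond their spread. They were Asic2, an acid-sensing ion channel subunit with 87 and 90 members, Rasgef1b, a Ras exchange factor with 41 and 42, and Csmd2, a giant CUB and sushi domain protein with 37 and 56. Slit3, a secreted guidance cue, had 48 and 46 members, and Pde4b, a phosphodiesterase that breaks down cyclic AMP, had 43 and 40. The twelfth was Gm37240 with 99 and 120, a model whose span contains 6 whole other protein-coding genes.

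At the other end, Skint5, of a family known from skin T cell selection, held 2 members in library 1 and 1 in library 2 over 522 kb (2.88 ± 1.36 per Mb). The X-linked model Gm15155 held 3 and 2 members, and the X-linked transcription factor gene Dach2 0 and 4. With the depth unknown, the 0 for Dach2 says only that none was listed. Mecom, a zinc finger factor of blood stem cells, held 5 and 2. Galnt13, a glycosyltransferase of mucin-type glycans, held 5 and 4 over 682 kb (6.60 ± 1.04 per Mb), although its promoter signal was 1.87 and 2.31, above the median of the very long genes in both libraries. Gm42416, Gm37013 and Gm37388 are 3 overlapping models with the same 4 and 7 members, and each contains over 30 whole other genes whose exons and starts are left out by the rule.

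**Figure D3:**
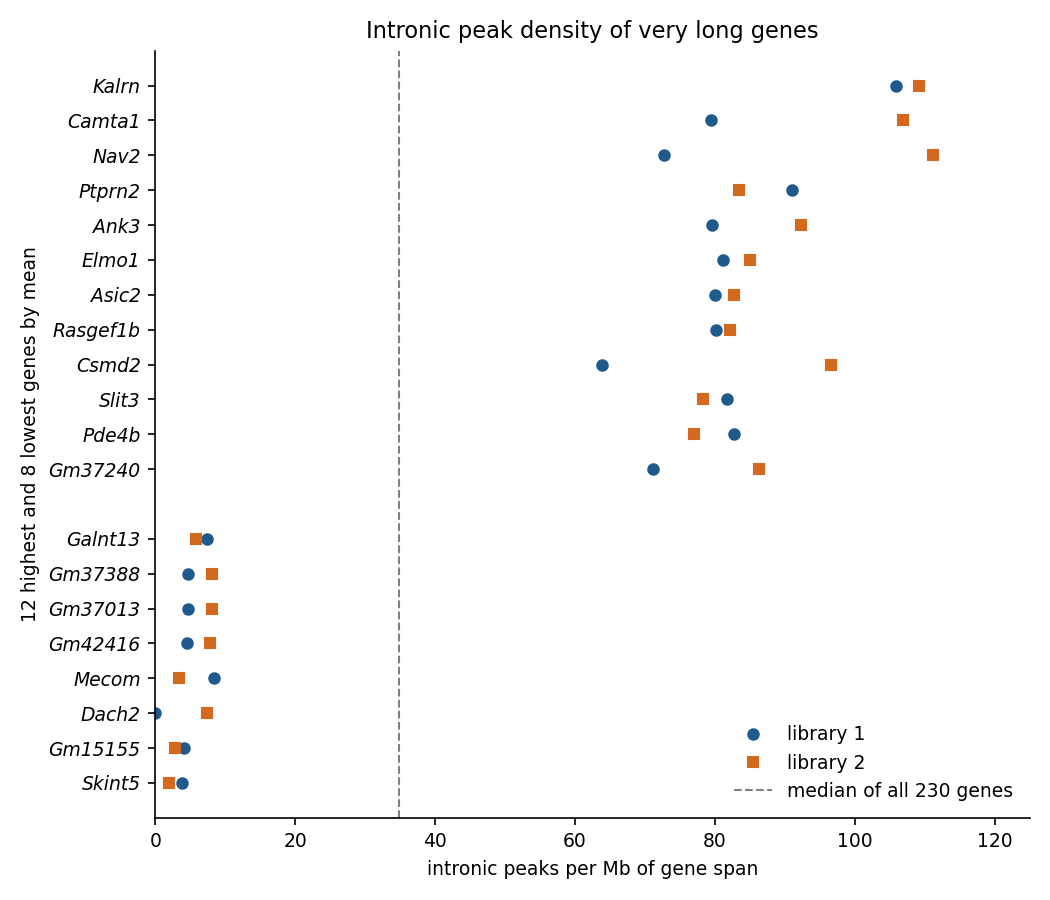
Members per Mb of gene span in library 1 (circles) and library 2 (squares) for the 12 very long genes with the highest and the 8 with the lowest mean, with the median of all 230 genes at 34.8 as a dashed line. Kalrn sits at 106 and 109, Nav2 is spread from 72.7 to 111, and Skint5 lies at 3.83 and 1.92.

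Models that run across other genes need care. Of the 230 gene models 6 contain 5 or more whole other protein-coding genes each, namely Gm20388, Fgfr2, Gm37240, Gm37388, Gm37013 and Gm42416. Gm20388 is the longest (chr8:119910841-124345722) and contains 71, and it held 288 and 344 members, 71.3 ± 8.93 per Mb. The Fgfr2 model, a fibroblast growth factor receptor gene drawn out to 2961 kb, contains 29 and held 176 and 175. Without these 6 models, 6699 and 6916 members remained, at 35.8 and 36.9 per Mb of span, against 36.9 and 38.4 with them. The other 3 of the 5 longest genes were all sparse. Ptprd, a synaptic receptor phosphatase, held 61 and 60 members over 2271 kb (26.6 ± 0.311 per Mb). Cntnap2, which clusters potassium channels on axons, held 35 and 38 over 2245 kb (16.3 ± 0.945 per Mb). Dmd, the dystrophin gene on the X chromosome, held 21 and 22 over 2257 kb (9.52 ± 0.313 per Mb). For each of them the libraries lay closer together than the genes did.

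Within genes, members came both in clusters and far apart. In the 224 genes other than the 6 models the median distance between neighbouring members was 14.2 kb in library 1 and 12.8 kb in library 2, with 12.5% and 16.2% of neighbours under 1 kb apart. Over all 230 genes the longest stretch without a peak of any kind had a median of 105.1 and 106.7 kb. Exonic and promoter peaks and the gene ends also bounded these stretches, so stretches without a member can be longer. In both libraries 25 genes had one over 200 kb without any peak. The longest in Gm15155 was 655 and 448 kb, and in Naaladl2 643 and 284 kb. Single introns ranged from many members to none. Intron 1 of Asic2, 996 kb of the gene's 1088 kb, held 73 and 79 members, which is most of that gene's total. Its density was 75.9 and 82.2 per Mb of eligible sequence, against 82.8 and 85.6 for the whole gene. Intron 1 of Opcml, an IgLON adhesion gene, held 43 and 39, intron 1 of Rora, a nuclear receptor gene, 43 and 38, and intron 1 of Ntm, another IgLON gene, 37 and 43. Intron 1 of Dmd (187 kb), intron 5 of Pcdh11x (179 kb) and intron 12 of Stpg2 (179 kb) held none in either library.

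The largest differences between libraries among genes with 20 or more members in either all had library 2 higher. They were Nav2 with a difference of 38.5 per Mb, Csmd2 with 32.8, Camta1 with 27.5, Celf2, an RNA-binding splicing factor gene with 39 and 62 members and a difference of 23.7, and Rgs6, a G protein regulator gene with 30 and 42 members and a difference of 20.9. The members shared with the other library numbered 43 and 42 in Nav2, 32 and 32 in Csmd2 and 25 and 25 in Rgs6. Overlap counts from both sides, so these numbers are near equal by construction and the excess of library 2 is unshared. Over all 230 genes, 115 had more members per Mb in library 2, 97 had more in library 1 and 18 had equal numbers.

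Gene families among the very long genes overlapped broadly. Synaptic scaffold and release genes had the highest median, 48.7 members per Mb over 8 genes, of which 7 lay above the median of all 230 (34.8). Magi1, a membrane-associated scaffold, was highest at 67.4 ± 4.65 per Mb and Rims1, a presynaptic active zone protein, lowest at 20.2 ± 1.36. Growth factor and kinase signalling genes had a median of 42.6 over 12 genes, with 8 above 34.8, from Pde4b at 79.9 to the neuregulin receptor gene Erbb4 at 9.76. Transcription factor and RNA-binding genes had 42.2 over 15, with 9 above, from Camta1 to Mecom at 5.87. Ion channels and their partners had 37.0 over 17, with 10 above, from Asic2 at 81.3 to Nkain3, which encodes a partner of the sodium pump, at 17.4. The 4 giant Csmd and Lrp genes had 36.9, from Csmd2 at 80.2 to the lipoprotein receptor family gene Lrp1b at 15.8.

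Several neuronal families were no denser than very long genes at large. Axon guidance genes had a median of 34.6 per Mb over 7 genes, with 3 above 34.8, from Slit3 at 80.0 to the ephrin receptor gene Epha6 at 14.2. Cadherins, protocadherins and catenins had 34.3 over 9, with 4 above, from Cdh13 at 73.0 to Pcdh11x at 8.06. Glutamate and GABA receptor genes had 33.6 over 7, with 3 above, from the delta receptor gene Grid1 at 55.0 to the kainate receptor gene Grik2 at 13.7. The largest family, 29 synaptic adhesion genes, had 32.3, with 13 above, from Kirrel3 at 75.3 to the X-linked Il1rapl2 at 8.23. Muscle and matrix genes had 28.5 over 8, with 3 above, from the heparan sulphate enzyme gene Hs6st3 at 44.4 to Dmd. Fragile-site and ubiquitous genes had 28.4 over 11, with 3 above, from the polarity gene Pard3 at 71.1 to Naaladl2 at 11.5. Glial genes had the lowest median, 23.9 over 6, with only Pde4b, which also stands in the signalling list, above 34.8, and the transcription factor gene Sox6, active in oligodendrocyte precursors, lowest at 14.1. In every family the range within it was wider than the distance between the highest and the lowest family median.

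**Figure D4:**
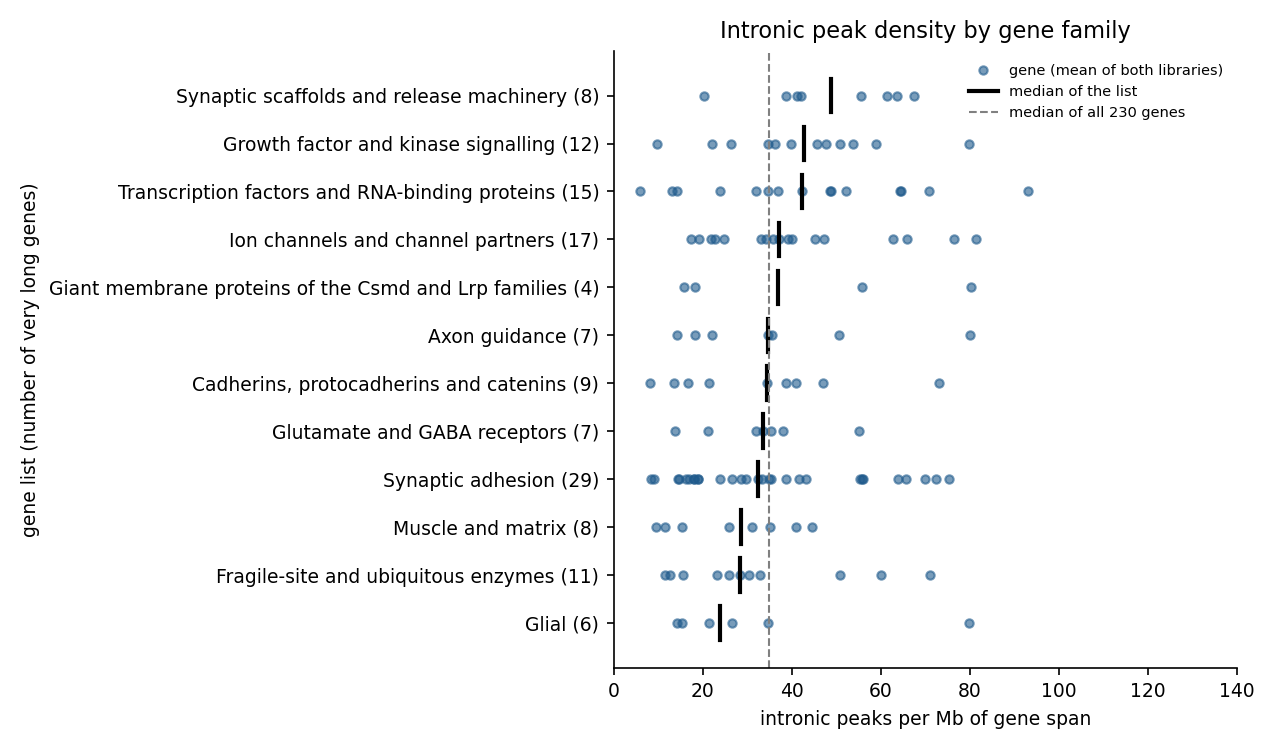
Members per Mb of gene span (mean of both libraries) for each very long gene of 12 lists, 1 point per gene, with the median of each list as a black bar and that of all 230 genes as a dashed line. Medians run from 48.7 for synaptic scaffolds to 23.9 for glial genes, and the points of all lists overlap.

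Almost all very long genes had an open promoter. A promoter peak, one centred at most 500 bases from any of the gene's starts, was present in both libraries for 219 of 230 genes, 95.2% (exact 95% interval 91.6 to 97.6%), against 63.0% of all protein-coding genes and 91.0% of genes of 200 to 500 kb. Very long genes had a median of 7 annotated starts, all genes 3 and genes of 200 to 500 kb 6, which gives a long gene more places for such a peak. Their promoter peaks were weaker, at a median of 1.60 and 1.93 against 1.98 and 2.37 in genes of 200 to 500 kb and 3.13 and 3.47 for all genes that had one. Members per Mb and promoter signal had a Spearman's rho of 0.363 and 0.382 across the 230 genes, as a description. The 11 genes with no promoter peak in either library had a median of 11.6 and 14.9 members per Mb, against 36.3 and 35.9 for the 219. They included Skint5, the kidney cilium gene Pkhd1 and the models Gm37013, Gm37388 and Gm42416. These overlapping models have the same members, so a single locus enters the median more than once. No median was taken without them. Arhgap15, a Rac GTPase-activating protein gene, was the exception among the 11, with 36 and 46 members (63.4 ± 10.9 per Mb).

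The X chromosome stood apart. Its 12 very long genes held 120 and 123 members, 11.3 and 11.6 per Mb of eligible sequence, against 41.1 and 42.8 on the autosomes. The median signal was 0.289 and 0.259 on X and 0.524 and 0.506 on the autosomes. Intronic peaks of shorter genes were also sparser on X, at 21.9 and 22.6 per Mb against 51.4 and 54.4. The deficit relative to genes of 200 to 500 kb was -10.8 peaks per Mb on autosomes alone, so it did not rest on X.

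Members carried footprints slightly less often than other intronic peaks. The midpoint of a deposited footprint lay in 73.7% of members in library 1 (exact 95% interval 72.6 to 74.7%). In library 2 the share was 77.3% (76.3 to 78.2%). For intronic peaks of genes under 500 kb, 31128 and 32901 in number, these shares were 79.3% and 81.6%, and over all peaks they were 75.9% and 78.6%. The difference was -5.01 ± 0.910 percentage points (SD, n = 2), and -1.35 with the shorter peak lists. Members overlapped a peak of the other library in 71.8% and 68.7% of cases, against 76.3% and 72.0% of the other intronic peaks and 77.8% and 73.2% of all peaks. These intervals cover counting error only, since read depth is unknown.

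Within bins of signal the members' shares were at or above those of other intronic peaks, apart from sharing at a signal of 1.5 or more, where both groups stood at 99.8% to 99.9%. Of members with a signal from 0.5 to 0.8, 88.5% and 89.4% held a footprint, against 86.1% and 88.0% of other intronic peaks, and from 0.3 to 0.5 the shares were 59.9% and 70.1% against 59.5% and 66.5%. Sharing followed the same course, with 83.1% and 82.4% of members from 0.5 to 0.8 shared, against 79.7% and 74.9%. More of the members were weak: 12.6% and 14.5% had a signal under 0.3, against 6.05% and 7.19% of the others. The 5094 pairs of members matched between libraries had a median log2 ratio of library 2 to library 1 of 0.01 with an SD of 0.41, and 85 pairs (1.67%) differed by over 2-fold. Of all matched pairs 1.59% did and of those of other intronic peaks 1.41%, so the members' share was near the background. Members were 181 and 180 bases wide at the median, against 186 and 184, with a GC content of 47.8% and 49.0%, against 50.3% and 51.1%. Repeats covered over 50% of the bases in 2.50% and 2.88% of them.

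Of the footprints themselves, 11799 in library 1 and 13815 in library 2 lay in the eligible introns, 64.0 and 74.96 per Mb, and 93.9% and 92.8% of them lay in a peak. Their median length was 9 bases. Ranking genes by the footprints inside their members, per Mb, gave nearly the order by members (Spearman's rho 0.966 and 0.974). That count grows with the number of members by construction, so it is no separate evidence for the order.

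Matches to 14 short patterns were searched in 200 bases around each midpoint on both strands. Matches to the CTCF consensus stood in 3.78% of members in library 1 (exact 95% interval 3.36 to 4.25%) and 3.74% in library 2, against 6.30% and 6.06% of other intronic peaks and 5.74% and 5.60% of all peaks. They stood in 12.7% and 15.7% of about the 500 strongest members and in 3.12% and 2.90% of the rest, while most of the strongest had none. The median signal was 0.939 and 1.03 with a match and 0.510 and 0.493 without. Their middles lay in a footprint in 79.1% and 83.0% of cases, where 9.24% and 10.1% of all member bases lay in one. In other intronic peaks this share of matches was higher, at 83.8% and 87.8%, so it is not particular to members. No other pattern with 100 or more matches in each library came near the CTCF share in members.

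Matches of the other patterns with 100 or more matches in each library were less often footprinted. Rarer patterns had higher shares from few matches. GCGTGGGCG had 83.3% and 66.7% of 6 matches in each library in a footprint. TGACGTCA had 45.0% and 36.0% of 20 and 25, and GGGGCGGGG 38.6% and 36.2% of 44 and 58. CAGATG stood in 29.3% and 27.9% of members, against 26.4% and 25.5% of other intronic peaks and 22.3% and 21.4% of all peaks, and 21.5% and 24.7% of its matches lay in a footprint. TTGGCA stood in 20.7% and 19.8%, against 18.6% and 18.3% of other intronic peaks and 16.3% and 15.8% of all peaks, with 17.5% and 20.4% of its matches in a footprint. CAGCTG, which reads the same on both strands, stood in 18.5% and 19.0% of members, below the 19.8% and 19.4% of other intronic peaks and above the 17.7% and 17.7% of all peaks, with 18.8% and 21.5% in a footprint. GTTGCNANG had 22.6% and 30.5% of its matches in a footprint, against 29.8% and 31.5% in other intronic peaks. There the shares were 21.6% and 24.5% for CAGATG, 19.7% and 21.6% for TTGGCA, and 19.1% and 21.7% for CAGCTG. Matches of ACAATGG, the Sox pattern, lay in a footprint in 4.88% and 6.79% of cases and those of ATGCAAAT, the POU pattern, in 8.13% and 8.47%. The intervals of both, the first reaching 9.39% and 11.8% and the second 14.4% and 15.03%, hold the share of all member bases. In other intronic peaks the shares were 7.48% and 8.64% for ACAATGG and 4.51% and 7.46% for ATGCAAAT.

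**Figure D5:**
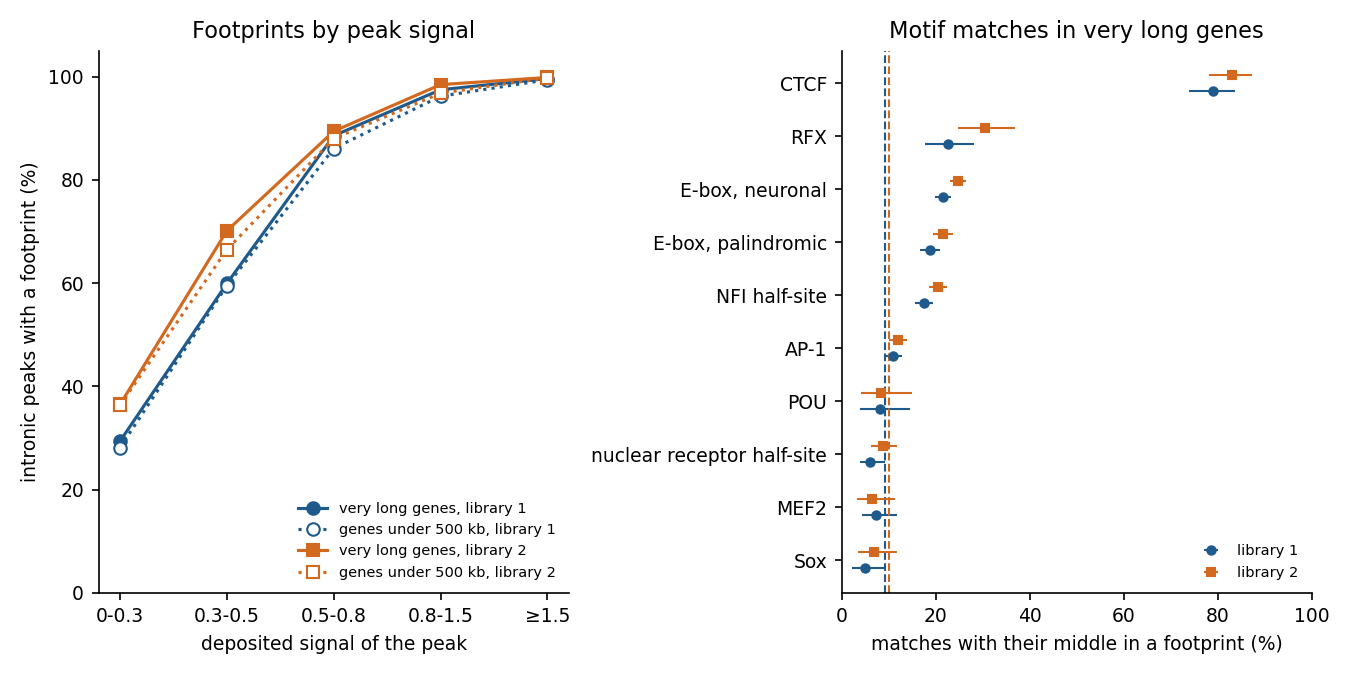
Percent of intronic peaks that hold a footprint by deposited signal (left, filled points for very long genes and open points for genes under 500 kb), and percent of motif matches in members whose middle lies in a footprint (right, bars are exact 95% binomial intervals, dashed lines the share of all member bases, CAGCTG being the palindromic and CAGATG the neuronal E-box). From 0.5 to 0.8 members stand at 88.5% and 89.4%, and CTCF matches at 79.1% and 83.0% lie far to the right of the other patterns.

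TGANTCA, the AP-1 pattern of Fos and Jun, differed between the libraries. It stood in 17.9% of members in library 1 and 13.7% in library 2, and among other intronic peaks in 16.6% and 12.9% and among all peaks in 13.2% and 10.5%. Members found in both libraries held it in 17.0% (interval 16.0 to 18.0%) and 15.9% (14.9 to 16.9%). These are overlapping peaks at largely the same sites, so their close shares follow from the definition and are no separate result. Members without a partner held it in 20.2% (18.5 to 22.0%) of 2052 in library 1 and 9.03% (7.91 to 10.3%) of 2370 in library 2. AGGTCA, a nuclear receptor half-site, went the other way, with 6.48% and 9.24% of the unshared and 5.22% and 5.28% of the shared members. For both patterns the libraries lay apart in the unshared members, and what sets the unshared members was not tested.

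Of the 10 strongest members found in both libraries, 2 lay in the 12 densest genes, 1 each in Camta1 and Rasgef1b. Those 12 genes held 709 of all 7266 members of library 1, so a count of 2 among 10 is no result about strong members. The first was the Gm20388 member printed above, with a signal of 11.01 and 9.17 (10.1 ± 1.30, SD, n = 2), 3.83 kb from the start of Gm17786. The Fgfr2 member (6.21 ± 1.15) lay 23.8 kb from the nearest start, that of Oat, inside the drawn-out part of the model. The Camta1 member (6.14 ± 0.711) stood in intron 9, and the Rasgef1b member (5.64 ± 0.554) in intron 4, each nearest to a start of its own gene at 2.15 and 4.27 kb. A further member of Fam155a had 5.31 ± 0.572 and one in intron 19 of the ion channel gene Trpm3 4.83 ± 0.253, the latter 145 kb from any start. Of the other 4, 3 lay in Gm20388 (5.42 ± 1.11, 5.21 ± 0.652 and 4.70 ± 0.0107) and 1 in the overlapping models Gm37388, Gm37013 and Gm42416 (5.88 ± 0.383). Those in Gm20388 were nearest to the starts of Gm22715 at 60.8 kb, the forkhead gene Foxc2 at 2.67 kb and the junctophilin gene Jph3 at 11.5 kb. The member nearest to Gm22715 lay inside the protein-coding gene Gse1. All 10 held footprints in each library, as did 99.6% and 99.8% of all members with a signal of 1.5 or more. Of all members, 5 in library 1 and 9 in library 2 had a signal over 5.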

How the data were processed

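Open chromatin was measured by DNase-seq in 2 libraries of left cerebral cortex. Per the deposited readme files, each library's peak lists, footprints and per-base table were made from its own alignments on mm10. No source used here names the aligner or the callers, or says how the CAST genome was handled. The authors deposited a signal per peak whose normalization they did not state. The deposited per-base tables hold a false discovery rate (q-value) and list only values under 0.05, and the deposited footprint lists carry the q-value 0.01 in every line, read as a threshold. Read depth is unknown.

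The longer peak list was used. Members followed the stated rule with GENCODE M21, and a base belonged to the longest protein-coding gene over it. A peak was shared when it overlapped a peak of the other library by at least 1 base. Sequences came from the matching RefSeq assembly. Some items that the rules take are not reported here. Genes were named by rule: the 12 densest and 8 sparsest, the 5 longest, the extremes of each of 12 lists, the 10 strongest shared members and the 5 largest library differences; introns, gaps and genes without a promoter peak were picked after their values were seen. Members and lists were chosen with earlier results of these data known, and the CTCF, RFX, MEF2 and ROR patterns were revised after first results. Matches to TGACGTCA, GCGTGGGCG, GGGGCGGGG, MEF2 and ROR were also counted. No tests were made. Counting, class assignment and motif search were tested on simulated data or against a direct search. Python 3.11.15, numpy 2.4.6, pandas 2.3.3, scipy 1.17.1, matplotlib 3.10.9 and blastn 2.17.0 were used.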

Additional observations from a re-analysis of the deposited data

How the results depend on the processing

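Values are means of both libraries. The mean number of members was 7414. It was 3666 with the shorter peak lists, 2706 with only peaks at or above the median signal of their list, 13072 for genes of 300 kb or more and 3051 for genes of 1 Mb or more, which changes the set of peaks or genes by construction. Members per Mb of span were 37.6. They were 18.6 with the shorter lists, 13.7 with the stronger peaks, 40.3 and 36.5 for those gene limits, 31.0 at over 10 kb from starts, 39.2 on autosomes and 36.4 without the 6 models that hold other genes. The difference in density from genes of 200 to 500 kb (-11.3) was -6.73, -8.14, -11.6 and -10.8 with the shorter lists, the stronger peaks, over 10 kb from starts and on autosomes. The difference in median signal (-0.116) was -0.142 with the shorter lists and -0.133 without the 6 models. The difference in the share with a footprint (-5.01 points) was -1.35 with the shorter lists; the cause was not tested. The share of members found in both libraries (70.2%) was 57.2% at an overlap of at least 50% of both peaks and 73.9% with the shorter lists. The difference in CTCF share (-2.42 points) was -1.65 with the narrower pattern tried first. All of these differences kept their sign. Each library alone gave the same signs. Gene ranks between libraries kept a rho of 0.958 to 0.974 by footprints, by bases under a false discovery rate of 0.05, per eligible Mb and without the 6 models. Models holding other genes, autosomes, the narrower pattern and the distances in shorter genes were added after seeing the data. No paired analysis was possible because there is 1 group. The unknown depth limits any reading of a gene or intron without members.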
